A study of Mus musculus with 8 samples.

Results

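The genes examined here are those that place a newborn granule cell in the adult dentate gyrus. They were 10 genes chosen by name: Cxcl12 and its receptor Cxcr4, Reln with its receptors Vldlr and Lrp8 and the adaptor Dab1, Slit2 with its receptor Robo1, and the cytoskeletal regulators Disc1 and Pafah1b1. Every array probe annotated with one of these symbols was taken, which gave 38 of the 56605 probes and 10 of the 26894 gene symbols on the array. RNA of the dentate gyrus was hybridised to 8 one-colour arrays, 2 for each of 4 groups of male C57BL/6 mice aged 8 to 9 weeks. Derlin-1 control and Derlin-2 control mice were flox/flox for Derl1 or for Derl2 and carried no Cre, whereas mice of the Derlin-1 KO and the Derlin-2 KO groups carried the same floxed gene together with Cre under the nestin promoter. The genotype label of the KO arrays names only the floxed gene, so that the groups were taken from the sample titles. Nestin-Cre acts in the neural lineage of the whole central nervous system and from before birth, so the deletion is not limited to adult-born neurons, and no array of mice with Cre and without a floxed gene was analysed here. The labels do not say whether the 2 arrays of a group came from separate mice, and p-values therefore measure the spread between these samples.

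Newborn granule cells arise in the subgranular zone, at the border of the hilus and the granule cell layer, and normally move only a short way into the layer. Cxcl12, a chemokine made by meninges, blood vessels and some neurons, binds Cxcr4 on progenitors and young neurons and keeps them in place. Reelin, the secreted glycoprotein encoded by Reln, comes in the adult from interneurons and from surviving Cajal-Retzius cells, and it signals through the lipoprotein receptors Vldlr and Apoer2 (the product of Lrp8) to the intracellular adaptor Dab1. Slit2 is a secreted repellent for cells that bear Robo1. Disc1 and Lis1 (the product of Pafah1b1) belong to the machinery that couples dynein and microtubules to the nucleus and centrosome of a moving cell. The question put to the arrays was whether transcripts of this placement machinery differed between KO and control tissue in either line.

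The controls of each line sat at positions 1 and 2 of a slide and its KO samples at positions 3 and 4 of the same slide. KO and control therefore cannot be told apart from position on the slide. Each line had a slide of its own, so slide and line cannot be told apart. The share of probes detected well above background ranged from 67.6% to 70.8% over the arrays. The brightest Derl2 probe had log2 signals of 11.35 and 11.22 in Derlin-2 controls and of 10.63 and 10.66 in Derlin-2 KO, a difference of -0.64 (SE 0.10; limma, adjusted p of 0.259). The brightest Derl1 probe read 10.85 and 10.76 in Derlin-1 controls against 10.57 and 10.66 in Derlin-1 KO, and the difference was -0.19 (SE 0.10, adjusted p of 0.9997 in limma). Which exons these probes cover is not given in the sources used here, so that the Derl1 signal does not settle which arrays of that line lack the gene. All 6 markers of dentate granule neurons on the list used here (Prox1, Calb1, Dsp, C1ql2, Tdo2 and Lct) were well above background on all 8 arrays, and so were all 6 markers of the neighbouring CA fields.

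No probe of the positioning genes differed between KO and control in either line, or between the lines, at an adjusted p below 0.05. Of the 38 probes, 27 were tested, those with 1 or more groups in which each array was well above background. These 27 covered all 10 genes, and 23 of them were well above background on all 8 arrays. Of the 11 probes left out, 7 were above background on no array. In the Derlin-1 line 0 of the 27 tested probes were called by limma, where 0% of all 39981 probes tested were called (0 probes), and 0 of the 27 had an unadjusted p below 0.05, against 4.72% of all probes. In the Derlin-2 line 0 of the 27 were called, against 0.0452% of all 39812 probes (18 probes), and 0 had an unadjusted p below 0.05, against 5.55% of all probes. For the difference of the KO effects, Derlin-1 minus Derlin-2, 0 of the 27 were called, against 0.00754% of all 39810 probes (3 probes), and 0 had an unadjusted p below 0.05, against 5.9% of all probes. The lowest adjusted p among the 27 was 0.9997 for the Derlin-1 line, 0.928 for the Derlin-2 line and 0.849 when the lines were set against each other.

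Both KO arrays lay on one side of both control arrays for 14 of the 27 probes in the Derlin-1 line (8 above and 6 below), against 35.5% of all probes, and for 11 of the 27 in the Derlin-2 line (8 above and 3 below), against 31.5% of all probes. The median difference over the 27 probes was 0.03 in the Derlin-1 and 0.01 in the Derlin-2 line on the log2 scale, where the medians over all probes tested were -0.01 and 0.02. Without regard to sign, the median difference was 0.16 and 0.11 for the positioning genes and 0.12 in both lines for all probes. The 95% interval of the difference included 0 for each of the 27 probes in both lines. In each line 16 of the 27 intervals lay wholly within 1.5-fold and 21 within 2-fold, so that a change beyond 2-fold was compatible with the data for the other 6 probes. Among the brightest probes of the 10 genes, 7 intervals in each line lay within 1.5-fold. All 10 lay within 2-fold in the Derlin-1 line and 9 did so in the Derlin-2 line, Cxcr4 being the exception.

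**Figure D1:**
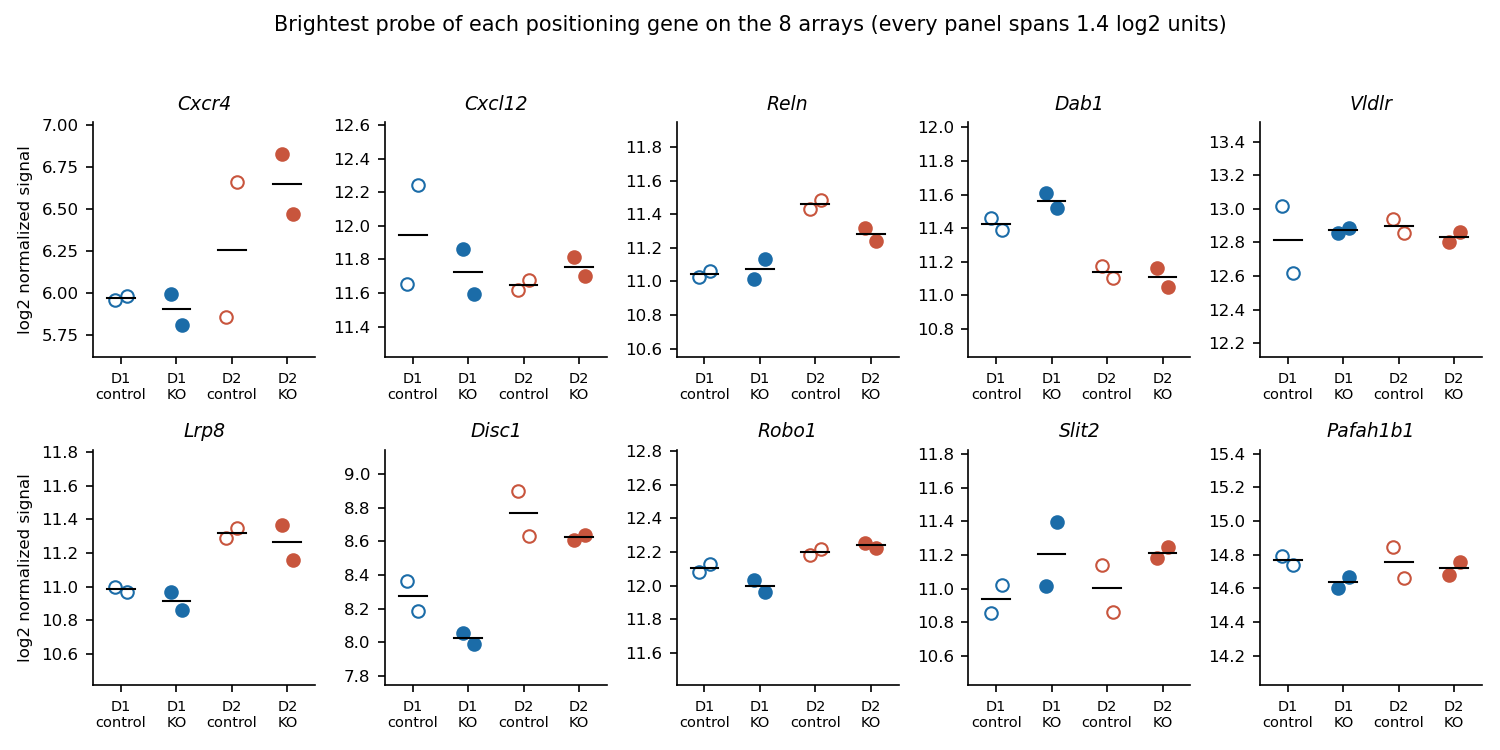
Log2 normalized signal of the brightest probe of each of the 10 positioning genes (y axis, every panel spanning 1.4 units) on the 8 arrays, by group (x axis; D1, Derlin-1 line; D2, Derlin-2 line). Open points are control arrays, filled points KO arrays, and bars the mean of 2 arrays; the controls of Cxcr4 in the Derlin-2 line (5.86 and 6.66) and of Cxcl12 in the Derlin-1 line (11.65 and 12.24) lie further apart than the group means do, whereas Reln, Dab1, Lrp8, Disc1 and Robo1 separate by line, as 35.5% of all probes did.

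Cxcl12, the chemokine ligand, was measured by a probe for transcript variant 3 (A_51_P172502) and by one for transcript variant 1 (A_55_P1966204). The variant 3 probe read 11.65 and 12.24 in Derlin-1 controls against 11.86 and 11.59 in Derlin-1 KO. The KO values spanned the lower control value, and the difference was -0.22 (SE 0.21, 95% interval -0.73 to 0.29). Its values in the Derlin-2 line were 11.62 and 11.68 for controls and 11.81 and 11.70 for KO samples, both of them above the controls by a difference of 0.11 (SE 0.21). The variant 1 probe read 10.99 and 10.29 in Derlin-1 controls against 10.30 and 9.96 in Derlin-1 KO. The groups overlapped narrowly, and the difference of -0.51 (SE 0.25) corresponded to a 0.702-fold level with an interval from 0.462 to 1.07. Derlin-2 controls read 9.43 and 9.61, and Derlin-2 KO samples read 9.77 and 9.71, a difference of 0.22 (SE 0.25). Both Cxcl12 probes thus had the lower mean in Derlin-1 KO and the higher mean in Derlin-2 KO, and for neither was the difference between the lines past the threshold (-0.33, SE 0.30 and -0.73, SE 0.35, adjusted p of 0.938 and 0.859 in limma).

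Cxcr4, the receptor, rested on 1 dim probe (A_52_P585124), since a second probe was above background on no array. It read 5.96 and 5.98 in Derlin-1 controls against 6.00 and 5.81 in Derlin-1 KO. The groups overlapped, and the difference was -0.07 (SE 0.27, 95% interval -0.73 to 0.60). The Derlin-2 line gave 5.86 and 6.66 in controls and 6.83 and 6.47 in KO samples. Control replicate 1 stood apart from the other 3 arrays of the line, and the difference of 0.39 (SE 0.27, 95% interval -0.28 to 1.06) came to -0.01 when that array was left out. An excess of Cxcr4 of up to 2.08-fold or a deficit to 0.826-fold in Derlin-2 KO was therefore within the interval. In whole dentate gyrus, fewer cells of a type and less RNA per cell cannot be told apart, which holds for all genes described here.

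Of the 14 other genes of chemokine signalling on the list, 13 were tested and 0 were called in either line. Their median difference was -0.03 in the Derlin-1 and 0.02 in the Derlin-2 line, beside -0.01 and 0.02 over all genes tested, each gene being given by its brightest probe. Over all genes, 0 of 19909 tested were called in the Derlin-1 line, and 3 higher and 6 lower of 19814 in the Derlin-2 line. The same counts stand beside the other lists below. Ackr3, the atypical receptor that binds and clears Cxcl12, read 11.51 and 11.19 against 11.39 and 11.36 in the Derlin-1 line (control against KO) and 11.06 and 11.33 against 11.26 and 11.47 in the Derlin-2 line, overlapping in both. Gnai2, an inhibitory G protein subunit through which Cxcr4 signals, had the lowest unadjusted p of the list in the Derlin-1 line, with a difference of -0.12 (SE 0.11), and Gnai3 had it in the Derlin-2 line, with 0.22 (SE 0.11). Arrb2, the arrestin that takes part in receptor internalisation, differed by -0.10 and 0.11 (SE 0.11 in each). Dpp4, a protease that cleaves Cxcl12, differed by -0.14 and 0.37 (SE 0.25 in each) at a low signal. Cxcr3 was not tested.

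Reln, the ligand of the Reelin pathway, had 3 tested probes. Its brightest probe, for transcript variant 1 (A_51_P365369), read 11.03 and 11.06 in Derlin-1 controls against 11.01 and 11.14 in Derlin-1 KO. The 4 values overlapped, and the interval of the difference (0.03, SE 0.10) ran only from -0.21 to 0.27. On the Derlin-2 slide, controls read 11.43 and 11.48 and KO samples 11.32 and 11.24. Both KO values lay below both controls, by a difference of -0.18 (SE 0.10, 95% interval -0.42 to 0.06) and an adjusted p of 0.965 in limma. This was the lowest unadjusted p (0.118) among the brightest probes of the 10 genes in that line.

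A second Reln probe (A_55_P2715296) read 6.66 and 6.60 on the Derlin-1 control arrays, 6.92 and 6.67 in Derlin-1 KO, 6.79 and 6.99 on the Derlin-2 control arrays and 6.75 and 6.68 on the Derlin-2 KO arrays. It thus lay above the controls in one line and below them in the other, with differences of 0.16 and -0.18 (SE 0.13 in each) and a difference between the lines of 0.34 (SE 0.18, adjusted p of 0.875). The probe for transcript variant 2 (A_66_P108810) was dim, and it was the only tested probe of the 10 genes beyond 1.5-fold in the Derlin-1 line. It read 5.59 and 4.33 on the control arrays and 4.38 and 3.15 on the KO arrays, of which the second was not well above background. The controls were 1.27 log2 units apart, and the difference of -1.19 (SE 0.53, 95% interval -2.49 to 0.10) had an adjusted p of 0.9997. Its values in the Derlin-2 line were 4.78 and 5.03 for controls and 4.51 and 4.85 for KO samples.

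Vldlr, the first of the Reelin receptors, had 2 tested probes. Its brightest probe (A_51_P278334) read 13.02 and 12.62 in Derlin-1 controls against 12.86 and 12.89 in Derlin-1 KO, both between the controls. Derlin-2 controls read 12.94 and 12.86, and Derlin-2 KO samples read 12.80 and 12.86. The differences were 0.05 and -0.06 (SE 0.15 in each), and a second probe for the same transcript variant (A_51_P500044) gave 0.14 and 0.06 (SE 0.12 in each).

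Lrp8 had 4 tested probes, of which the brightest (A_55_P2720770) read 11.00 and 10.97 in Derlin-1 controls against 10.97 and 10.86 in Derlin-1 KO. The Derlin-2 line gave 11.29 and 11.35 in controls and 11.37 and 11.16 in KO samples, and the differences were -0.07 and -0.06 (SE 0.11 in each). The next brightest (A_55_P2014555) gave 0.16 and 0.06 (SE 0.10 in each), with 10.28 and 10.17 against 10.40 and 10.37 in the Derlin-1 line. A dim probe for transcript variant 2 (A_51_P145041) again pointed opposite ways, with 5.72 on both control arrays against 5.77 and 5.91 in the Derlin-1 line and 5.50 and 5.77 against 5.46 and 5.26 in the Derlin-2 line. The difference between the lines was 0.39 (SE 0.19, adjusted p of 0.870 in limma). Another dim probe for that variant (A_55_P2730168) had differences of the same sign, 0.27 and 0.40 (SE 0.18 in each).

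Dab1, which is phosphorylated when Reelin binds, had 3 tested probes. The brightest, for transcript variant 2 (A_52_P392216), read 11.46 and 11.39 in Derlin-1 controls against 11.61 and 11.52 in Derlin-1 KO. Both KO values lay above the controls, by a difference of 0.14 (SE 0.10, 95% interval -0.11 to 0.39). On the Derlin-2 slide, controls read 11.18 and 11.10 and KO samples 11.16 and 11.05, a difference of -0.03. The 2 probes for transcript variant 1 gave differences between -0.10 and 0.06 over both lines, and their KO values overlapped the controls in each.

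Among the 22 other genes of the Reelin pathway, 21 were tested and 0 were called in either line. In the Derlin-2 line 14 of them had a difference above 0 and 7 below, with a median of 0.07, where 54.3% of all genes tested lay above 0. In the Derlin-1 line 12 lay above 0 and 9 below, with a median of 0.00, where 46.1% of all genes did. Rap1b, a small GTPase at the end of the Crk branch of the pathway, had the lowest p of the list in the Derlin-2 line. It read 12.21 and 12.31 in controls against 12.56 and 12.51 in KO samples, a difference of 0.28 (SE 0.09, unadjusted p of 0.0251 and adjusted p of 0.811 in limma). Itga3, an integrin subunit linked to Reelin signalling, had it in the Derlin-1 line, with 0.24 (SE 0.12).

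Of the kinases that phosphorylate Dab1, Fyn had differences of 0.10 and 0.09 (SE 0.09 in each) in the Derlin-1 and the Derlin-2 line, and Src of 0.00 and -0.05 (SE 0.20). The adaptors Crk and Crkl differed by -0.04 and 0.17 (SE 0.21) and by -0.10 and 0.07 (SE 0.13), and Rapgef1, the exchange factor they recruit, by 0.00 and 0.09 (SE 0.13). Cul5, the ubiquitin ligase scaffold that limits Dab1, differed by 0.01 and 0.02 (SE 0.09).

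Slit2, the secreted repellent, had 3 tested probes, and the 2 of them detected on all 8 arrays had the higher mean in KO samples of both lines, with no difference past the threshold. Its brightest probe, for transcript variant 3 (A_51_P496569), read 10.85 and 11.02 in Derlin-1 controls against 11.02 and 11.40 in Derlin-1 KO. The upper control and the lower KO value met, and the difference was 0.27 (SE 0.17, 95% interval -0.14 to 0.68). Its values in the Derlin-2 line were 11.14 and 10.86 for controls and 11.18 and 11.25 for KO samples, a difference of 0.21 (SE 0.17, 95% interval -0.20 to 0.62). The dim probe for transcript variant 2 (A_55_P2639641) read 4.73 and 4.77 against 4.77 and 5.46 in the Derlin-1 line. Derlin-2 controls read 5.22 and 4.65, and Derlin-2 KO samples read 5.75 and 5.41, and the difference was 0.64 (SE 0.29), with an unadjusted p of 0.0659 and an adjusted p of 0.928 in limma. Another probe (A_52_P21887) had means of 4.55 in Derlin-1 controls and 4.94 in Derlin-1 KO (0.39, SE 0.48). Of the Derlin-2 arrays, 1 control and 1 KO array were not well above background for it, with 4.71 and 3.25 against 4.68 and 3.90. Over the 8 fits without 1 array, the difference of the brightest probe stayed between 0.08 and 0.46 in the Derlin-1 line and between 0.07 and 0.35 in the Derlin-2 line. Fits without an array of the other line left both groups of a line whole. The sign also held in these fits for Dab1, Lrp8, Disc1, Robo1 and Pafah1b1 in the Derlin-1 line. It held for Cxcl12, Reln, Vldlr, Disc1 and Robo1 in the Derlin-2 line.

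Markers of tissue next to the granule cell layer also varied over the arrays on which Slit2 was measured. The mean log2 signal of the 6 CA field markers was 11.14 and 11.67 in Derlin-1 controls against 11.28 and 11.86 in Derlin-1 KO. On KO replicate 2, which had the highest Slit2 value, Wfs1, Mpped1 and Fibcd1 were highest of this line. Spink8 was highest on control replicate 2, Grik4 on control replicate 1 and Bok on KO replicate 1. Slit2 read 11.02 on both control replicate 2 and KO replicate 1, where the CA means were 11.67 and 11.28. The 4 tested choroid plexus markers had means of 7.31 and 7.80 in Derlin-1 controls against 7.81 and 8.16 in Derlin-1 KO. In the Derlin-2 line the CA field markers lay between 11.79 and 11.90 on all 4 arrays, and the choroid plexus markers read 8.12 and 9.05 in controls against 8.87 and 8.36 in KO samples. Their part in the Slit2 values was not tested.

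Robo1, a receptor for Slit2, had 4 tested probes that did not point one way. The brightest (A_55_P2797793) read 12.08 and 12.13 in Derlin-1 controls against 12.03 and 11.96 in Derlin-1 KO. The Derlin-2 line gave 12.18 and 12.22 in controls and 12.25 and 12.22 in KO samples. The KO arrays lay just below the controls in the first line and just above them in the second, with differences of -0.10 and 0.04 (SE 0.09 in each). The interval in the Derlin-1 line, 0.797-fold to 1.09-fold, came with the smallest SE of the 27 probes. A probe for a predicted transcript (A_52_P381608) gave -0.25 and -0.03 (SE 0.13 in each), and a probe without a description in the files (A_55_P2735295) gave 0.47 and -0.44 (SE 0.27 in each). The latter read 7.22 and 7.26 against 7.63 and 7.80 in the Derlin-1 line and 7.24 and 6.38 against 6.47 and 6.27 in the Derlin-2 line. Its difference between the lines, 0.91 (SE 0.38), had the lowest unadjusted p of the 27 probes for that contrast (0.0555, adjusted p of 0.849 in limma).

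The 17 other Slit, Robo and netrin genes on the list were all tested, and 0 were called. Their median difference was -0.02 in the Derlin-1 and -0.03 in the Derlin-2 line. Slit1 and Slit3, the other Slit ligands, differed by 0.02 and -0.10 (SE 0.10) and by 0.00 and -0.20 (SE 0.10), the latter being the lowest p of the list in the Derlin-2 line, with 9.77 and 9.88 in controls and 9.63 and 9.62 in KO samples. Robo2 read 11.78 and 11.57 against 11.59 and 11.45 in the Derlin-1 line and 11.39 on both control arrays against 11.54 and 11.62 in the Derlin-2 line, differences of -0.16 and 0.19 (SE 0.12). Srgap2, a GTPase activating protein downstream of Robo, differed by -0.07 and -0.13 (SE 0.19). Ntn1, a guidance cue of the netrin family, had the lowest p of the list in the Derlin-1 line. It read 7.10 and 7.04 in controls against 6.76 and 6.58 in KO samples, and the difference was -0.40 (SE 0.18, unadjusted p of 0.0674 in limma). Its receptor Dcc differed by 0.24 and -0.03 (SE 0.18).

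Disc1, a scaffold protein that sets the pace at which newborn granule cells mature and where they settle, had the lowest unadjusted p among the brightest probes of the 10 genes in the Derlin-1 line. The probe, for transcript variant 2 (A_51_P358872), read 8.37 and 8.19 in Derlin-1 controls against 8.06 and 7.99 in Derlin-1 KO. Both KO values lay below both controls, by a difference of -0.25 (SE 0.13, 95% interval -0.57 to 0.06), with an unadjusted p of 0.0966 and an adjusted p of 0.9997 in limma. On the Derlin-2 slide, controls read 8.90 and 8.63 and KO samples 8.61 and 8.64, a difference of -0.14 (SE 0.13).

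The other Disc1 probes were at the edge of detection. The probe for transcript variant 1 (A_55_P2003038) read 4.06 and 4.40 against 3.94 on both KO arrays of the Derlin-1 line, where 1 control array and no KO array was well above background. The 95% interval of the difference there, -0.64 to 0.06, included 0, and no fold is given. Its values in the Derlin-2 line were 4.55 and 4.36 for controls and 4.42 and 4.50 for KO samples. The remaining probe (A_55_P2042849) read 5.03 and 4.49 against 4.99 and 4.86 in the Derlin-1 line. Derlin-2 controls read 3.20 and 3.23, and Derlin-2 KO samples read 3.35 and 5.20, and only KO replicate 2 was well above background, so that no fold is given.

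Pafah1b1, which encodes the dynein regulator Lis1, was measured by 2 bright probes with little spread. The brightest (A_55_P2736005) read 14.79 and 14.74 in Derlin-1 controls against 14.60 and 14.67 in Derlin-1 KO. Both KO values lay below the controls, by a difference of -0.13 (SE 0.11, 0.913-fold with an interval from 0.762 to 1.09). The Derlin-2 line gave 14.85 and 14.66 in controls and 14.68 and 14.76 in KO samples, a difference of -0.04 (SE 0.11). The second probe (A_51_P291388) gave -0.06 and 0.00 (SE 0.10 in each).

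The 22 partners of Disc1, Lis1 and dynein on the list were all tested, and 0 were called. In the Derlin-1 line 17 of the 22 had a difference below 0 and 5 above, with a median of -0.05 beside -0.01 over all genes. Of all genes tested, 46.1% lay above 0 in that line. In the Derlin-2 line 12 lay above 0 and 10 below, with a median of 0.02, where 54.3% of all genes lay above 0. Tuba1a, the tubulin most used by migrating neurons, had the lowest p in the Derlin-2 line, with 17.17 and 17.12 in controls and 17.34 and 17.41 in KO samples, a difference of 0.23 (SE 0.09, unadjusted p of 0.0465 and adjusted p of 0.897 in limma). Cdk5r1, the activator of Cdk5, had it in the Derlin-1 line, with -0.17 (SE 0.12). Cdk5 itself differed by -0.05 and 0.06 (SE 0.14).

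The proteins that link Lis1 and Disc1 to dynein are encoded by Nde1 and Ndel1. Nde1 read 11.34 and 11.39 against 11.30 and 11.18 in the Derlin-1 line and 10.84 and 10.89 against 11.12 and 11.01 in the Derlin-2 line, differences of -0.13 and 0.20 (SE 0.10 in each), and Ndel1 differed by 0.05 and 0.03 (SE 0.10). The catalytic subunits that Lis1 also binds, Pafah1b2 and Pafah1b3, differed by -0.03 and -0.04 (SE 0.11) and by 0.11 and 0.05 (SE 0.10). The dynein heavy chain Dync1h1 differed by -0.0048 and -0.095 (SE 0.10), Fez1, a Disc1 partner, by -0.16 and 0.04 (SE 0.13), and the kinase Gsk3b by 0.02 and -0.06 (SE 0.11). The microtubule proteins Dcx and Dclk1 differed by -0.09 and 0.18 (SE 0.15) and by 0.02 and 0.08 (SE 0.12). Over all 22 partners the differences ran from -0.28 to 0.11 in the Derlin-1 and from -0.22 to 0.23 in the Derlin-2 line.

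**Figure D2:**
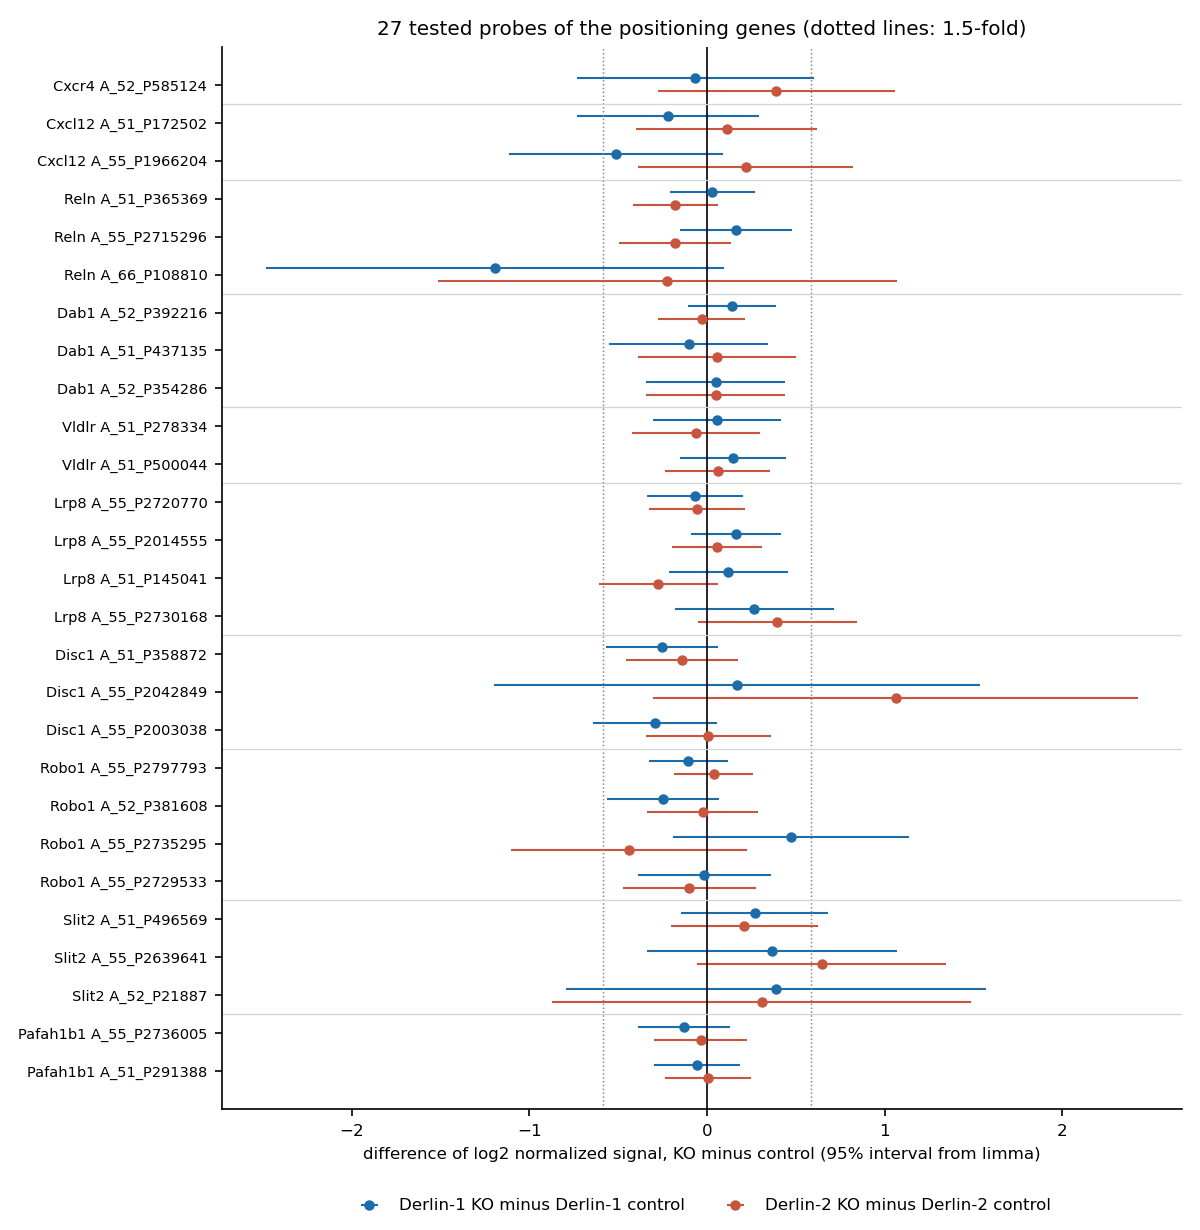
Difference of log2 normalized signal, KO minus control (x axis), with its 95% interval from limma for each of the 27 tested probes of the positioning genes (y axis), blue for the Derlin-1 line and red for the Derlin-2 line. Every interval includes 0, and the widest are those of Disc1 A_55_P2042849 and Reln A_66_P108810 (SE 0.56 and 0.53).

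**Figure D3:**
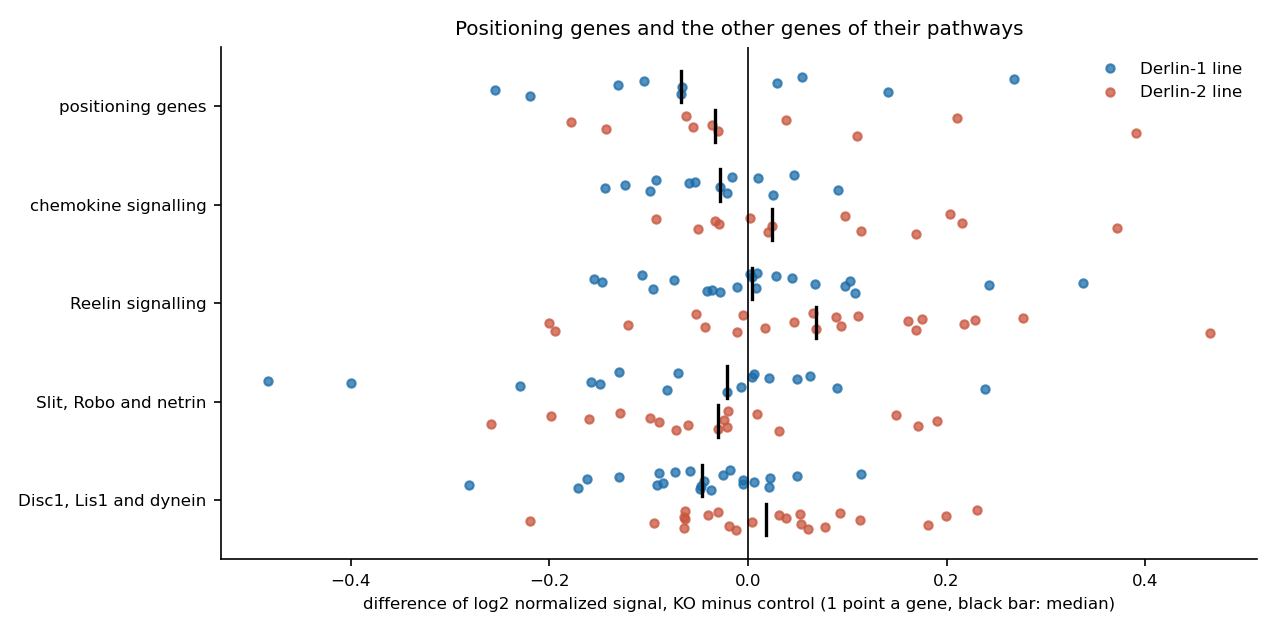
Difference of log2 normalized signal, KO minus control (x axis), for the brightest probe of each of the 10 positioning genes and of the tested genes of their 4 pathways (rows), 1 point a gene with the median as a black bar, blue for the Derlin-1 line and red for the Derlin-2 line. The medians lie between -0.07 and 0.07, and no point passed the threshold.

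Probes of the same gene differed in sign in several cases. In the Derlin-1 line the tested probes of Reln, Dab1, Lrp8, Disc1 and Robo1 had differences on both sides of 0, and in the Derlin-2 line those of Dab1, Vldlr, Lrp8, Disc1, Robo1 and Pafah1b1 did. The Robo1 probes ranged from -0.25 to 0.47 and from -0.44 to 0.04 in the 2 lines, and the Lrp8 probes from -0.07 to 0.27 and from -0.27 to 0.40. The sign among the Reln probes differed only through A_66_P108810, which 1 Derlin-1 KO array did not detect well above background. Cxcl12 had both below 0 in the Derlin-1 line and both above 0 in the Derlin-2 line.

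The positioning genes separated by line no more often than other genes did. For 9 of the 27 probes the 4 arrays of the Derlin-2 line lay wholly above (5 probes) or wholly below (4 probes) those of the Derlin-1 line, against 35.5% of all probes. Slide and line cannot be told apart in the control levels that follow, which are given as a description. The Cxcl12 variant 1 probe had means of 10.64 ± 0.50 in Derlin-1 controls and of 9.52 ± 0.13 in Derlin-2 controls (SD, n = 2 each). Disc1 (variant 2) had 8.28 ± 0.13 and 8.77 ± 0.19, and the brightest Reln probe 11.04 ± 0.027 and 11.46 ± 0.037. Lrp8 gave opposite pictures, the brightest probe being 0.34 higher and the dim probe A_55_P2730168 0.79 lower in Derlin-2 controls. Dab1 (variant 2) read between 11.39 and 11.61 in the Derlin-1 line and between 11.05 and 11.18 in the Derlin-2 line. Tissue markers differed between the control groups too. Mean log2 signals in Derlin-1 against Derlin-2 controls were 12.19 and 11.77 against 11.23 and 11.33 for granule neuron markers. They were 11.14 and 11.67 against 11.90 and 11.89 for CA field markers, and 12.59 and 12.65 against 12.99 and 13.17 for interneuron markers. Their part in the control levels was not tested.

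Cells that make or carry these molecules were followed by marker lists, and 0 of the tested marker genes were called in either line. The 8 interneuron markers stand for a source of Reelin. In the Derlin-1 line 6 of them had a difference above 0 (median 0.14), while the brightest Reln probe differed by 0.03 (SE 0.10) with overlapping arrays. In the Derlin-2 line 7 lay below 0 (median -0.10), and the brightest Reln probe also lay below the controls. The mean log2 signal of the 8 markers was 12.59 and 12.65 against 12.66 and 12.81 in the Derlin-1 line and 12.99 and 13.17 against 12.93 and 12.89 in the Derlin-2 line. Npy read 11.86 and 12.25 in Derlin-2 controls and 11.57 and 11.52 in Derlin-2 KO samples, a difference of -0.51 (SE 0.15, adjusted p of 0.716 in limma). In the Derlin-1 line Npy differed by 0.35 (SE 0.15). Sst differed by 0.38 and -0.33 (SE 0.11 in each) in the Derlin-1 and the Derlin-2 line. The Cajal-Retzius markers, another source, had 4 of 5 differences below 0 in the Derlin-1 line and 5 of 5 above 0 in the Derlin-2 line. In the Derlin-2 line Trp73 and Lhx1, detected on all 8 arrays, differed by 0.05 (SE 0.23) and 0.08 (SE 0.29). Ndnf and Calb2, also detected on all 8 arrays, differed there by 0.16 (SE 0.12) and 0.25 (SE 0.28). The largest difference of that line, 0.64 (SE 0.59) for Lhx5, rested partly on 1 control array that was not well above background. The part of these cells in the Reln values was not tested.

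Markers of newborn neurons, among which Cxcr4-bearing cells are found, differed by 0.18 to 0.94 in Derlin-2 KO. All 6 lay above 0 (median 0.34), where 54.3% of all genes tested did. Igfbpl1 had the lowest adjusted p of the list (0.401 in limma). Igfbpl1, Eomes and Sox11, 3 of the 6, had an unadjusted p below 0.05 in limma, against 4.76% of all genes. In Derlin-1 KO 5 of 6 lay below 0 (median -0.11), the exception being Calb2 with 0.38 (SE 0.28). Calb2 was counted among the Cajal-Retzius markers too. The Dcx probe, with the smallest difference of the list in the Derlin-2 line, read 8.47 and 8.33 in Derlin-2 controls and 8.62 and 8.55 in Derlin-2 KO samples. Of the endothelial markers 5 of 6 and of the pericyte and meningeal markers 6 of 7 lay above 0 in Derlin-2 KO, the exception among the latter being Dcn with -0.70 (SE 0.50), a gene named after its values were seen, while both Cxcl12 probes had KO values above the controls there. In the Derlin-1 line 4 of the 7 pericyte and meningeal markers lay above 0 and 3 below, with a median of 0.03, Dcn being at 0.50 (SE 0.50). The lowest were Kcnj8, a pericyte channel, and Lum, a proteoglycan of meningeal fibroblasts, which differed by -0.58 (SE 0.11) and -0.48 (SE 0.13), with an adjusted p of 0.9997 each in limma. Pdgfrb differed by -0.09 (SE 0.13), whereas Col1a2, Col1a1 and Rgs5 lay above 0, at 0.28 (SE 0.13), 0.19 (SE 0.23) and 0.03 (SE 0.21). Of the endothelial markers 3 lay above 0 and 3 below in the Derlin-1 line (median 0.01), where both Cxcl12 probes had the lower mean in KO samples. The microglial markers had medians of -0.13 and 0.12 and the astrocyte markers of -0.04 and -0.05. Of the dentate granule neuron markers 3 lay above 0 and 3 below in each line, with medians of -0.03 and 0.02. Their lowest p came from C1ql2 in the Derlin-1 line, with -0.53 (SE 0.21), and from Tdo2 in the Derlin-2 line, with 0.48 (SE 0.15). Whether these cells took part in the Cxcr4 and Cxcl12 values was not tested.

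**Figure D4:**
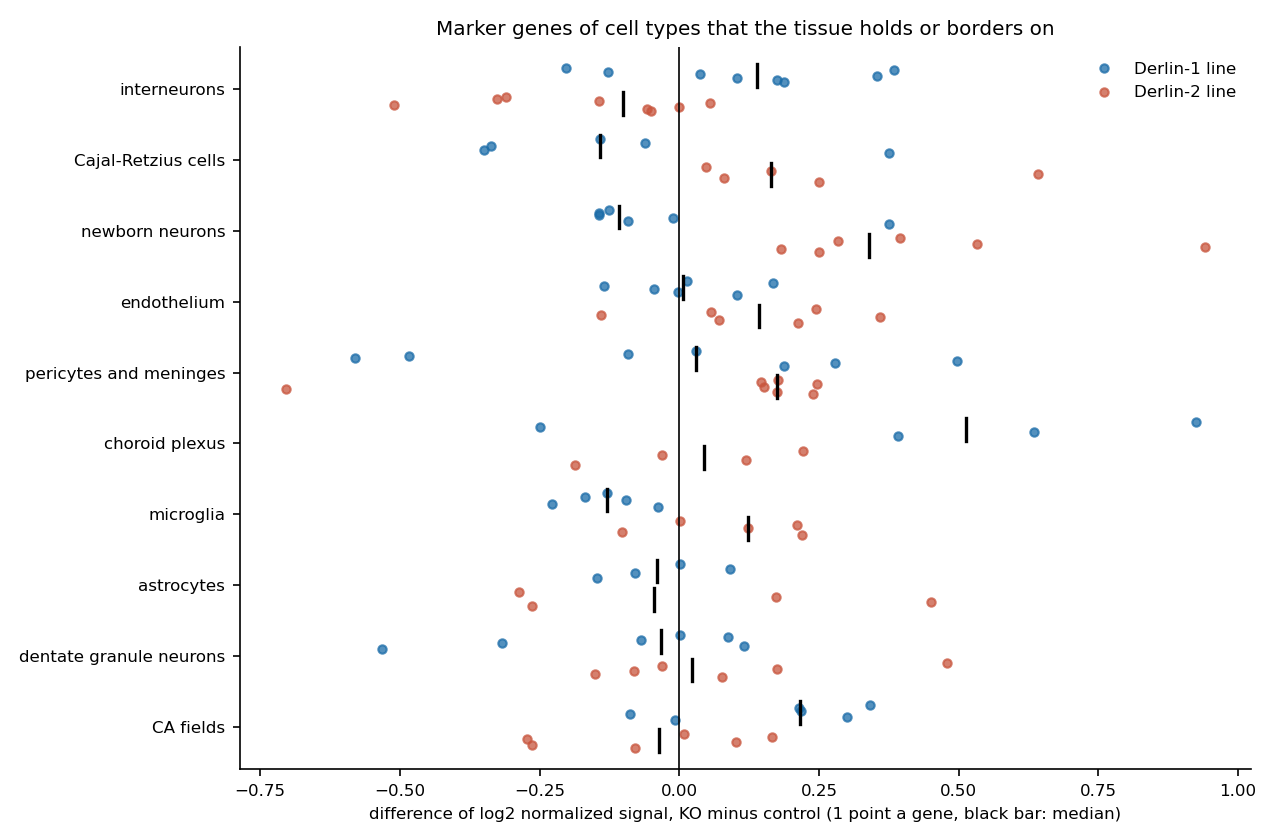
Difference of log2 normalized signal, KO minus control (x axis), for tested marker genes of 10 cell types (rows), 1 point a gene with the median as a black bar, blue for the Derlin-1 line and red for the Derlin-2 line. The newborn neuron markers have medians of -0.11 and 0.34 and the interneuron markers of 0.14 and -0.10 in the Derlin-1 and the Derlin-2 line.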

How the data were processed

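Total RNA of the dentate gyrus was labelled with Cy3 and hybridised to 8 arrays. The deposited scanner files hold spot intensity, background-subtracted and detrended by Agilent Feature Extraction (version 10.7.1.1, per the submitters' processing notes). The authors' deposited tables hold log2 values, quantile-normalized in GeneSpring and shifted to each probe's median over their samples. These served only as an alternative, and the authors' fold change columns were not used. Here signals below 1 were set to 1, and quantile normalization, the method the study names, was applied to log2 signals of all 8 arrays together. Control spots and spots with an outlier flag were left out, no spot was saturated (0), and 40001 of the 56605 probes had both arrays of at least 1 group well above background. Gene symbols come from the array's annotation, which was built on an older mouse assembly, so no positions are given.

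A model of 4 group means was fitted with limma (version 3.58.1, R version 4.3.3; 4 residual and 2.07 prior degrees of freedom). Tests were two-sided, with Benjamini-Hochberg adjustment over all probes tested and a threshold of 0.05. The fit was first run on simulated arrays with set changes. Those changes were larger than most differences given here, so that run does not bear on them. A gene is summarised by its brightest tested probe over the 8 arrays. The rule for named genes took all 10 members with every probe, 27 pathway partners, the gene of lowest p in each list and line, and Derl1 and Derl2. Of the 10 marker lists, leading genes were named only where a positioning gene is set beside them. Further genes of those lists were named after their values were seen. The members and lists were chosen with earlier results of these data known. The number of arrays limits the precision.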

Additional observations from a re-analysis of the deposited data

Results flagged for a closer look

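Some probes of the positioning genes had both KO arrays above both controls in one line and below them in the other. These were Reln A_55_P2715296, with a difference between the lines of 0.34 (SE 0.18, adjusted p of 0.875 in limma), Lrp8 A_51_P145041, with 0.39 (SE 0.19, adjusted p of 0.870), and Robo1 A_55_P2797793, with -0.14 (SE 0.13, adjusted p of 0.938). The test of the difference did not pass the threshold for any of these 3 probes. Over all probes tested, both KO arrays lay on one side of both controls for 35.5% in the Derlin-1 and 31.5% in the Derlin-2 line. The share of all probes that lay on opposite sides in the 2 lines was not counted.

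A Reln probe that was not tested (A_55_P2715301) was well above background on no control array and on 1 KO array of each line. It read 3.62 and 3.48 in Derlin-1 controls against 3.70 and 4.45 in Derlin-1 KO samples. In the other line it read 3.73 and 3.09 in controls against 3.30 and 5.44 in KO samples.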

How the results depend on the processing

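None of the 30 member results (10 genes, each in both lines and as the difference of the lines) passed the threshold under any of the 19 settings run, and their lowest adjusted p, 0.252, came from the fit that left out Derlin-2 control replicate 2. Their sign turned in 40 of 560 values, 8 of them where the reported difference was over 1 SE. With 75th percentile scaling and with the deposited log2 values, Cxcr4 in the Derlin-1 line came to 0.078 and 0.058 and Pafah1b1 in the Derlin-2 line to 0.044 and 0.039. Without the last eighth of the array rows, the brightest probe left stood in, A_55_P2014555 for Lrp8 and A_55_P2735295 for Robo1. The Robo1 probe A_52_P381608 is brighter than A_55_P2735295 but lies in the rows left out. Lrp8 then came to 0.16, 0.056 and 0.11 and Robo1 to 0.47, -0.44 and 0.91 (Derlin-1 line, Derlin-2 line, difference of the lines). As means over all tested probes of a gene, Lrp8 came to 0.12, 0.031 and 0.089, Robo1 to 0.026, -0.13 and 0.16, Reln to -0.33 in the Derlin-1 line and -0.14 between the lines, Dab1 to 0.024 and Disc1 to 0.31 in the Derlin-2 line, and Slit2 to -0.046 between the lines. With 1 array left out, where a lone array is assumed to vary like the other groups, signs turned within these ranges: in the Derlin-1 line Cxcr4 -0.16 to 0.027, Cxcl12 -0.52 to 0.077, Reln -0.032 to 0.092 and Vldlr -0.15 to 0.25, in the Derlin-2 line Cxcr4 -0.013 to 0.80, Dab1 -0.085 to 0.024, Lrp8 -0.16 to 0.048 and Pafah1b1 -0.13 to 0.056, and between the lines Vldlr -0.084 to 0.32, Lrp8 -0.11 to 0.088, Disc1 -0.25 to 0.024 and Slit2 -0.13 to 0.25. No sign turned with normexp (on the median signal, offset 50), another filter or floor, the line alone, the replicate block or a trended robust prior. Same-numbered arrays deviated together with r of 0.27 and -0.098 in the 2 lines, and the numbers were not taken as pairs. In the Derlin-1 line some markers did go by replicate number. Control and KO means were 12.19 and 12.02 on replicates 1 and 11.77 and 11.70 on replicates 2 for granule neuron markers. For CA field markers they were 11.14 and 11.28 on replicates 1 and 11.67 and 11.86 on replicates 2. With the replicate block 0 probes were called in each comparison. At 1.5-fold with no p, 1, 2 and 4 member probes and 1875, 2265 and 4742 of all probes passed. Over all probes the Derlin-2 line had 2 calls with normexp, 2 above background on all 8 arrays, 29 without a filter, 3 with the trended prior, 4 without the last eighth and 0 in the line alone, against 18. The difference of the lines had 5 with 75th percentile scaling, 6 with a floor of 16, and 0 with normexp, either other filter, the trended prior or without the last eighth, against 3. With 1 array left out these counts ran from 4 to 242 and from 31 to 165, and in the Derlin-1 line from 0 to 47. The causes were not tested. Of the 27 tested probes 4 were not well above background on all 8 arrays, so that some of their values lie at background.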
